A study of Xenopus laevis with 35 samples.

Results

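The genes msi1.S, fmr1.L and pabpc1.S encode proteins that bind messenger RNA, and each had a probe on an array hybridised with tadpole brain RNA. They were found by the gene names of the probe annotation and are 3 of 243 named genes on the array, each with 1 probe and no probe for the other homeolog (Xenopus laevis is allotetraploid, and .L and .S mark its long and short chromosome sets). The genes were chosen with their differences between exposed and unexposed tadpoles in these data known, so those differences are given as a description and were not tested. The tadpoles, Xenopus laevis at NF stage 54 (Nieuwkoop and Faber's staging), were early in the thyroid hormone-driven change to a frog. The 3 exposed treatments were 100 mg/L of MMI (methimazole), 20 mg/L of PTU (propylthiouracil) and 4 mg/L of PER (perchlorate), and control tadpoles received none of them; brains were taken after 24, 48 or 96 h. As background, methimazole and propylthiouracil inhibit thyroid peroxidase, the enzyme that iodinates thyroid hormone precursors, and perchlorate blocks the entry of iodide into the thyroid; the labels give the compounds' short forms only. Each of the 12 groups of treatment and time drew on 10 tadpoles from 2 tanks, whose RNA was combined into 3 pools. An array measured 1 pool of several animals, so SDs here are between pools. With 2 tanks to 3 pools, the pools of a group are not all separate exposures. The SEs and p-values below therefore do not measure the spread between tanks. Of the 35 arrays, PER at 24 h had 2 and every other group 3. No strain, sex or age beyond the stage is given in the sources used here.

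As background, msi1 encodes Musashi-1, an RNA-binding protein of neural stem and progenitor cells that binds the 3′ untranslated region of its target messages and changes their translation. fmr1 encodes FMRP, the fragile X protein, which is abundant in neurons, travels with messages to synapses and mostly holds back their translation. pabpc1 encodes the cytoplasmic poly(A)-binding protein, which coats the poly(A) tail and promotes both translation and stability of messages. All 3 act on RNA after transcription, whereas the array measured the abundance of their own messages.

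Values are intensities on a linear scale after the background had been taken off, scaled between arrays, and a value counted as above background where it passed 2 background SDs of its array. The control arrays were the noisiest: the median background SD was 613 in MMI, 581 in PTU and 348 in PER, against 1050 in control arrays. Between 79 and 241 of 449 probes were above background on an array. In PER, the arrays labelled 24 h replicate 1 and 48 h replicate 3 were almost identical, with a rank correlation of 0.9994 over spots where the next highest pair of arrays reached 0.654. There were thus 7 distinct PER arrays. Without both copies, PER averaged 3431 ± 760 for msi1.S and 973 ± 145 for fmr1.L (SD, n = 6 each). As to the labelled tissue, 3 genes of neurons were measured. gap43.S, a gene of growing neurons, was above background on 34 of 35 arrays, camk2a.S on 16 and dcc.L on 2. Markers of other tissues were scarce on the array. Those of red blood cells, muscle, gut and retina, 1 measured gene each (hbd.S, myf5.L, fabp2.L, crx.L), were above background on at most 2 arrays of any treatment, and epidermis had none of 6 listed genes. For hbd.S in PER the lowest and the median level were both 0, the value that empty cells were given here. Its count of 2 PER arrays may thus rest on few measured arrays. Of the immune list, 2 of 7 genes were measured (il1b.S and casp1.L), with a median summed level of 4740 in MMI, 2178 in PTU and 2163 in PER, against 4796 in control. In each treatment, the more often detected of these was above background on 9 MMI, 6 PTU, 8 PER and 6 control arrays. Of the glial list, 1 of 6 was measured, mbp.S of myelin-forming glia. It ranged from 1223 to 12342 in MMI (median 4854), from 915 to 22999 in PTU (3843) and from 1168 to 12262 in PER (7186), against 614 to 9065 in control (2942), and its part in the results below was not tested. In whole-brain RNA, fewer cells of a type and less RNA per cell cannot be told apart.

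msi1.S was higher in brains of tadpoles given each inhibitor than in control brains. It averaged 3310 ± 1392 in MMI (SD, n = 9 arrays), 2986 ± 1054 in PTU (n = 9) and 3467 ± 646 in PER (n = 8), against 839 ± 2219 in control (n = 8, the value of control 96 h replicate 3 being empty). It was above background on 8 of 9 MMI arrays, 9 of 9 PTU arrays and 8 of 8 PER arrays, against 3 of 8 control arrays. The message was thus measured on nearly every exposed array and was below the noise of most control arrays, whose background was also higher. The part of that higher background in the difference was not tested.

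After 24 h, msi1.S measured 3753, 2023 and 1793 in MMI, 1939, 4670 and 3569 in PTU and 3575 and 3414 in PER, against 690, 1007 and 5124 in control. One control array was thus higher than every exposed array at this time, and the ranges overlapped for all 3 compounds. After 48 h, msi1.S measured 4610, 4607 and 4120 in MMI, 2253, 3986 and 2705 in PTU and 3082, 4695 and 3575 in PER, against -839, 1126 and -1402 in control. At this time the lowest exposed array was above the highest control array. Over all probes, 7.88% of 444 had every MMI value above every control value at 48 h, 6.79% of 442 had this for PTU and 11.9% of 445 for PER, and nothing is read from these shares, since the gene was chosen with its differences from control known. After 96 h it measured 4295, 831 and 3757 in MMI, 3647, 1412 and 2692 in PTU and 2464, 3807 and 3128 in PER, against -1484 and 2491 in the measured control arrays. Ranges overlapped again, with 1 control array above the lowest array of each compound and MMI 96 h replicate 2 the lowest of the exposed arrays.

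On the log2 scale, with values below 0 set to 0 and an offset of 67.6 added, the fitted difference of msi1.S from control over the 3 times was 2.62 ± 0.62 (SE) for MMI, 2.55 ± 0.62 for PTU and 2.83 ± 0.65 for PER. After 24 h it was 0.60 for MMI, 1.01 for PTU and 1.14 for PER. After 48 h it was 4.68 for MMI, 4.07 for PTU and 4.43 for PER, and after 96 h it was 2.57 for MMI, 2.57 for PTU and 2.92 for PER. The difference was larger at 48 h than at 24 h for each compound. That step was not tested by itself, and a test over the 3 times together is given with the time comparisons. The 3 compounds were set against the same control arrays, so their likeness in this respect is not independent. All 9 MMI, 9 PTU and 8 PER arrays were above the control mean of their time on the log2 scale. Without the copied array, the PER value was 2.81. The size of these values depends on the offset, since most control values were near or below 0: with the median background SD as the offset they were 1.39 for MMI, 1.31 for PTU and 1.54 for PER.

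**Figure D1:**
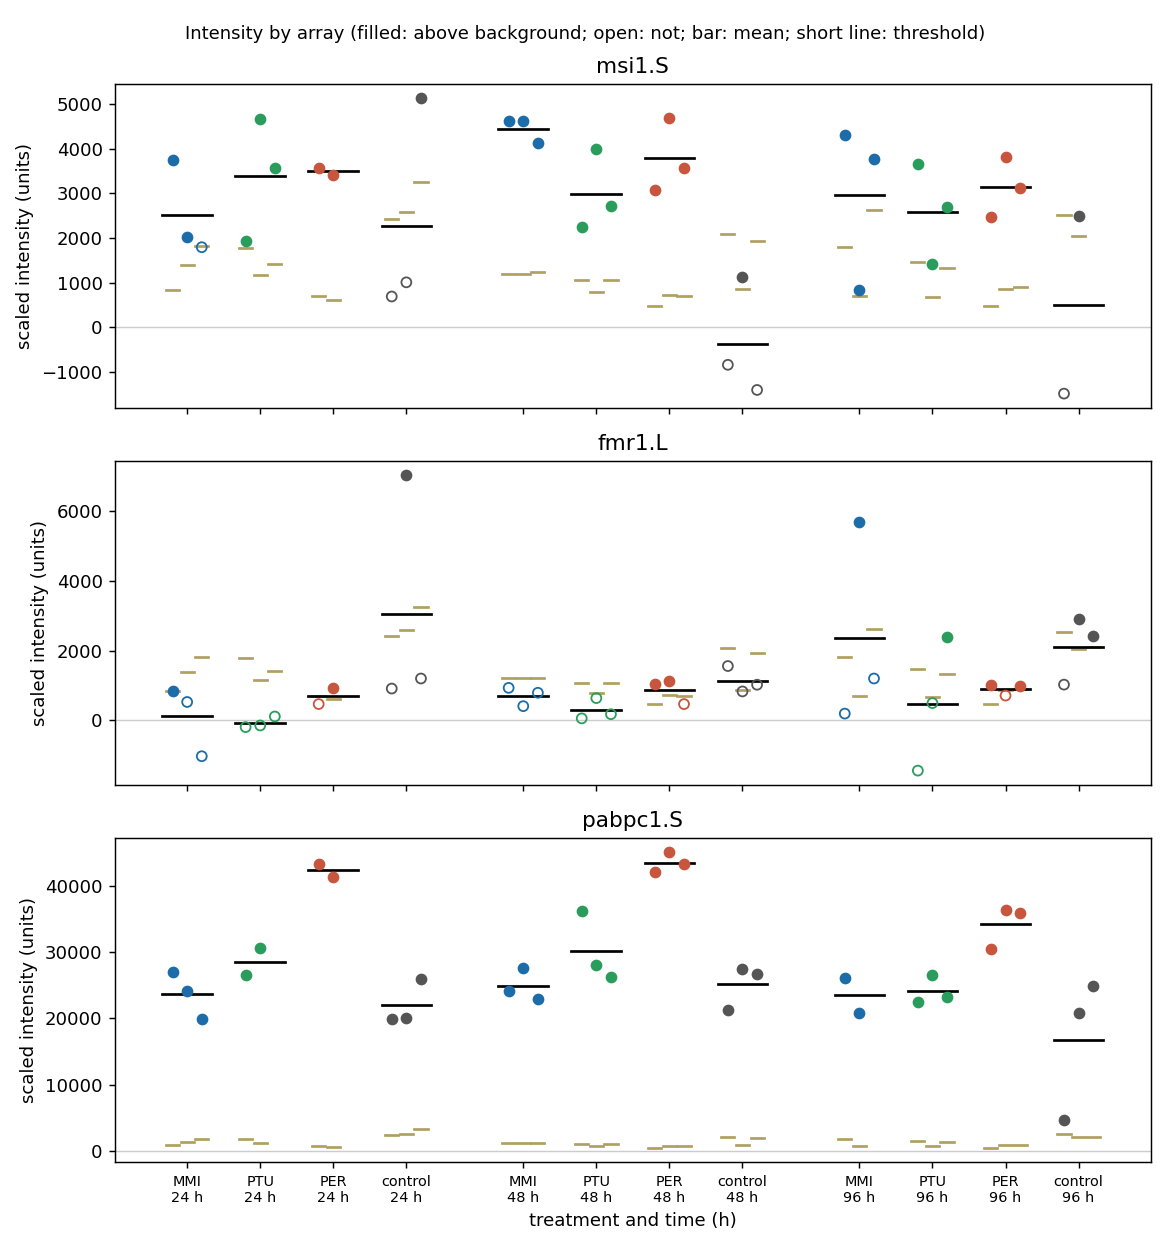
Scaled intensity (arbitrary units, linear axis) of msi1.S, fmr1.L and pabpc1.S on every array, by time of exposure in hours and treatment, with control rightmost at each time. Filled points were above 2 background SDs, open points were not, long bars mark group means and short lines each array's threshold; msi1.S is filled on most exposed and open on most control arrays, and pabpc1.S of PER lies above all control arrays.

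fmr1.L was dim, and with its spots averaged its mean was lower with each compound than in control. With the second spot alone this held for PTU and not for MMI or PER. It averaged 1064 ± 1851 in MMI (SD, n = 9), 235 ± 1002 in PTU (n = 9) and 847 ± 263 in PER (n = 8), against 2100 ± 1980 in control (n = 9). It was above background on 2 of 9 MMI, 1 of 9 PTU and 5 of 8 PER arrays, against 3 of 9 control arrays. FMRP is mainly a neuronal protein, and the message was near the detection limit in all 4 treatments on this array.

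After 24 h, fmr1.L measured 845, 530 and -1024 in MMI, -190, -143 and 114 in PTU and 470 and 934 in PER, against 914, 7020 and 1202 in control. Only the 7020 of control replicate 2 was above background among those controls, and no PTU array was. That control array had 1 spot above background (11947) and 1 below it (2092), so no fold is given for PTU. Every MMI and PTU array lay below every control array at this time, as did 11.0% of 444 probes for MMI and 10.6% of 443 for PTU. After 48 h it measured 934, 410 and 793 in MMI, 60, 641 and 180 in PTU and 1050, 1141 and 469 in PER, against 1559, 832 and 1024 in control. Every PTU array lay below every control array at 48 h, as did 12.0% of 442 probes. None of the MMI, PTU and control arrays at 48 h was above background, so no fold is given. After 96 h it measured 197, 5692 and 1202 in MMI, -1436, 498 and 2387 in PTU and 1020, 713 and 980 in PER, against 1027, 2898 and 2423 in control. The highest value at this time was an MMI array, and PER was the only compound whose 3 arrays all lay below the 3 controls, which held for 9.28% of all probes.

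Over the 3 times, the fitted log2 difference of fmr1.L from control was -1.32 ± 0.65 for MMI, -2.89 ± 0.65 for PTU and -0.98 ± 0.67 for PER (-0.70 without the copied array). These means include values below background, those at 48 h among them, so their size is set in part by the offset: with the median background SD as the offset PTU was at -1.38. On the log2 scale, 8 of 9 MMI, 8 of 9 PTU and 7 of 8 PER arrays were below the control mean of their time. These values rested on 1 spot of the pair that made up the probe. On control arrays the first spot averaged 3455 ± 3632 and the second 745 ± 1264 (SD, n = 9). No control array had both spots above background, 4 had the first alone and 2 the second alone. With the second spot alone, the difference from control was 0.01 for MMI, -0.90 for PTU and 0.17 for PER.

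Over all arrays, the same check set fmr1.L apart from the other members. On control arrays alone it did not set fmr1.L apart from msi1.S. There the median absolute difference between the paired spots was 1566 for fmr1.L and 1736 for msi1.S. Across arrays, the rank correlation of the paired spots was 0.191 for fmr1.L (35 arrays), 0.639 for msi1.S (33 arrays) and 0.840 for pabpc1.S (33 arrays); the points share their array's scale and background. For msi1.S, both spots were above background on 8 of 9 MMI, 8 of 9 PTU and 7 of 7 PER arrays with both spots filled, against 1 of 8 control arrays. Over all probes, among those with any spot above background, the share with only 1 such spot was 35.9% in MMI, 46.0% in PTU and 38.5% in PER, against 54.1% in control. The part of this unequal spot noise in the fmr1.L and msi1.S differences was not tested.

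**Figure D2:**
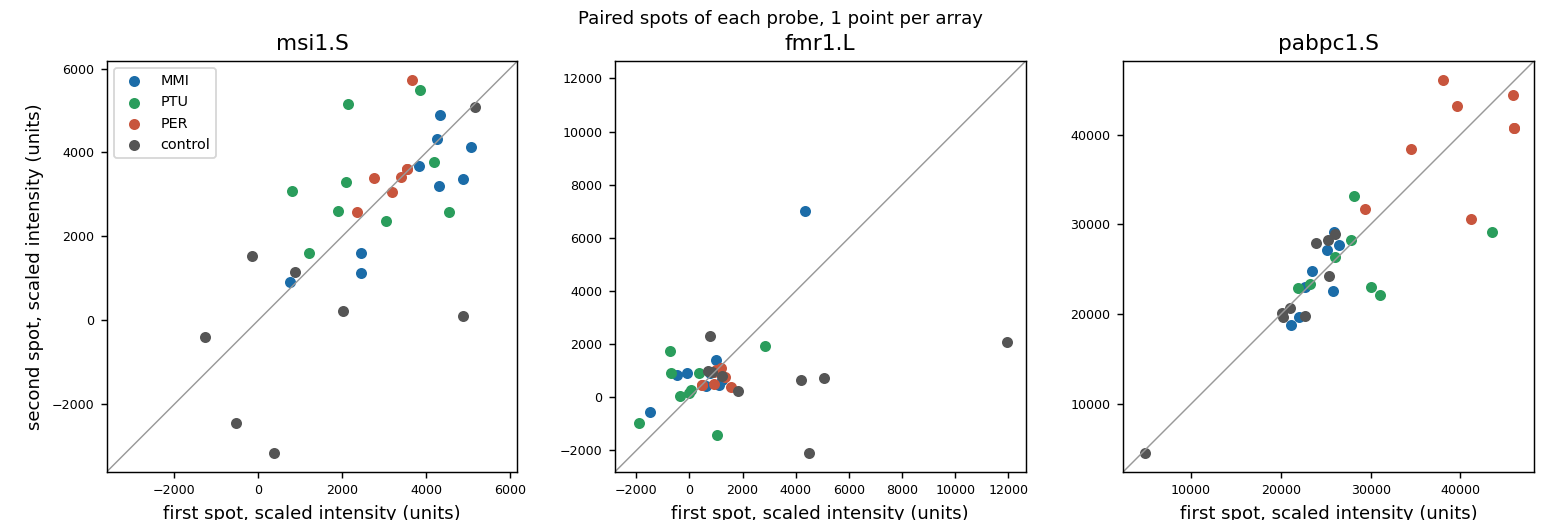
The first spot of each probe (horizontal axis) against the second (vertical axis), both as scaled intensity, 1 point an array, coloured by treatment. Over all arrays, the spots of pabpc1.S and msi1.S follow each other, with rank correlations of 0.840 and 0.639. Those of fmr1.L do not, at 0.191, with its highest control values in the first spot only.

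pabpc1.S was bright, and it was higher in PER brains than in control brains. It was above background on all 33 arrays that measured it. It averaged 24096 ± 2776 in MMI (SD, n = 8), 27504 ± 4392 in PTU (n = 8) and 39771 ± 4984 in PER (n = 8), against 21318 ± 6891 in control (n = 9). Without the pair of near-identical PER arrays, the PER mean was 38578 ± 5286 (n = 6).

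After 24 h, pabpc1.S measured 27047, 24155 and 19976 in MMI, 26526 and 30663 in PTU and 43352 and 41419 in PER, against 19965, 20122 and 25954 in control. After 48 h it measured 24150, 27560 and 22898 in MMI, 36319, 28035 and 26194 in PTU and 42099, 45105 and 43352 in PER, against 21254, 27437 and 26749 in control. After 96 h it measured 26145 and 20839 in MMI, 22419, 26578 and 23300 in PTU and 30529, 36425 and 35890 in PER, against 4717, 20829 and 24832 in control. At each time the lowest PER array was above the highest control array, as for 9.95% of all probes at 24 h, 11.9% at 48 h and 9.50% at 96 h, while the MMI and control ranges overlapped at 24, 48 and 96 h. PTU was above all controls of its time at 24 h (2 arrays, as for 7.90% of all probes) and overlapped them at 48 and 96 h.

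Over all times, the lowest PER array, at 30529, was above the highest control array, at 27437. For the whole array, 0.448% of 446 probes had every PER value above every control value, 2 probes, of which the other was gap43.S, the growth-cone protein GAP-43. That share is a background for a contrast that chose the member, and nothing is read from it. Over the 3 times, the fitted log2 difference of pabpc1.S from control was 0.29 ± 0.31 for MMI, 0.49 ± 0.31 for PTU and 1.03 ± 0.31 for PER, the last a 2.04-fold difference (1.02 without the copied array). Control 96 h replicate 1, at 4717, stood apart and decided much of these sizes: without it they were -0.06 for MMI, 0.16 for PTU and 0.66 for PER.

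The sizes of pabpc1.S also moved with the scaling between arrays. With the all-probe median as the scale they were 0.87 for MMI, 1.18 for PTU and 1.70 for PER. That scaling moved bright probes in general: over the 95 brighter probes, those above background on at least 17.5 of the 35 arrays, the median difference of PER from control was 0.16 as reported and 0.80 under it. Relative to that median, pabpc1.S of PER was higher by 0.87 as reported, 0.87 without scaling, 0.90 with the all-probe median and 0.62 with quantile normalization. Among the 95 brighter probes, 10 had a larger PER difference than pabpc1.S as reported, and 23 with quantile normalization.

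**Figure D3:**
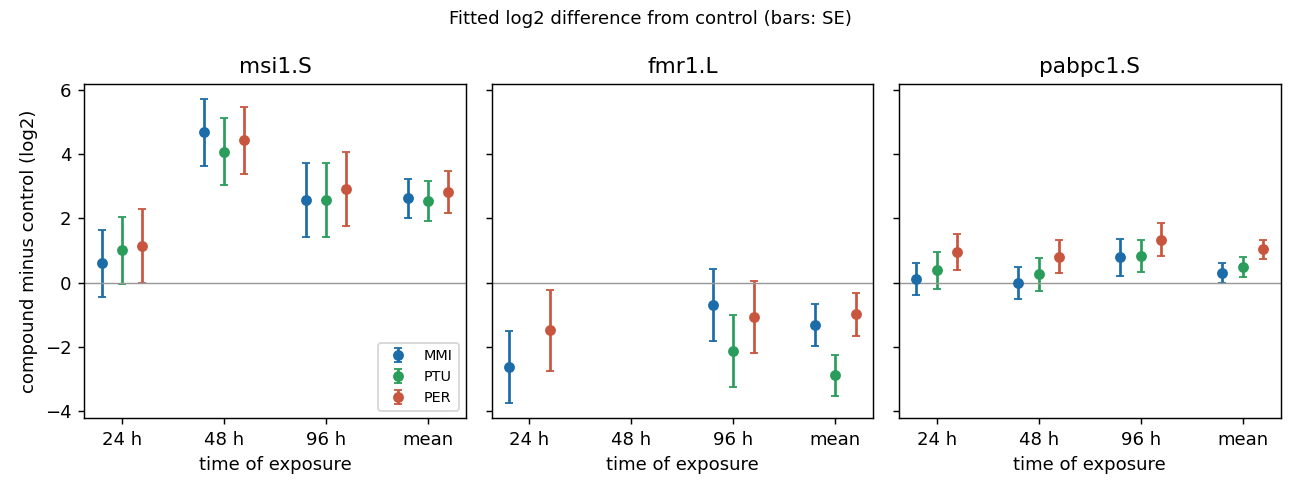
Fitted log2 difference of MMI, PTU and PER from control at each time and as the mean of the 3 times, with bars of 1 SE. Times at which either group had no array above background are left out; msi1.S is higher in all 3 compounds and most so at 48 h, fmr1.L, with its spots averaged, is lower (with the second spot alone it is at 0.01 for MMI and 0.17 for PER), and pabpc1.S reaches 1.03 in PER over the 3 times.

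Differences between the compounds are taken between exposed groups alone and were tested, with limma over all 449 probes and Benjamini-Hochberg adjustment. Control arrays still entered the errors and p-values of these tests, since the spread of each probe was estimated over all 12 groups. The exposed arrays also entered the differences from control known when the genes were chosen, so these tests are not independent of that choice. MMI, PTU and PER were each given at a single concentration, and the concentrations differed, so these are differences between 3 exposures and not between molecules at a matched dose. Over the 3 members, the 9 compound pairs as means and 27 at single times, the 36 time differences and 9 tests of the difference from control by time made 81 tests, of which 0 passed an adjusted p of 0.05 and 6 had an unadjusted p under it. Over all probes, 0% of 436 were called between MMI and PTU, 0% of 439 between MMI and PER and 0.915% of 437 between PTU and PER as the mean over times. Unadjusted p-values under 0.05 were reached by 48 probes between MMI and PTU, 33 between MMI and PER and 36 between PTU and PER. At single times, 2.50% of probes were called between MMI and PTU at 96 h and 0% in the other 8 comparisons of compounds. Without the copied PER array, no member passed between PER and another compound: for fmr1.L the PTU minus PER difference was -2.16 (limma adjusted p = 0.483), and for pabpc1.S the MMI minus PER difference was -0.72 (adjusted p = 0.914).

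For msi1.S the 3 inhibitors lay close together relative to their errors. The log2 difference was 0.06 for MMI minus PTU (95% interval -1.17 to 1.30, limma adjusted p = 0.989), -0.21 for MMI minus PER (-1.50 to 1.07, adjusted p = 0.939) and -0.28 for PTU minus PER (-1.56 to 1.01, adjusted p = 0.943). The intervals are wide enough to hold differences of 2-fold in either direction, so they do not show that the inhibitors acted alike. At 48 h all 3 MMI arrays were above all 3 PTU arrays, as were 12.2% of 441 probes, with a log2 difference of 0.60 ± 1.04 (limma adjusted p = 0.998).

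For fmr1.L, PTU was lower than both other compounds, without passing the adjusted threshold. The log2 difference was -1.91 for PTU minus PER (95% interval -3.29 to -0.52, limma adjusted p = 0.306) and 1.56 for MMI minus PTU (0.23 to 2.89, adjusted p = 0.402). It was -0.35 for MMI minus PER (-1.73 to 1.04, adjusted p = 0.939). Only 1 of 9 PTU and 2 of 9 MMI arrays were above background, against 5 of 8 PER arrays, so the sizes of the PTU differences depend on the offset. With the median background SD as the offset, PTU minus PER was -0.67 and MMI minus PTU was 0.65.

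For pabpc1.S, PER had the highest mean of the 3 compounds, without passing the adjusted threshold. Every PER array was above every MMI array, the lowest at 30529 and the highest MMI array at 27560, which held for 0.448% of 446 probes (2 probes, the other being prss8.S). The log2 difference was -0.73 for MMI minus PER (95% interval -1.39 to -0.08), and its limma adjusted p was 0.555 (0.284 without control 96 h replicate 1). It was -0.54 for PTU minus PER (-1.19 to 0.11, limma adjusted p = 0.652) and -0.20 for MMI minus PTU (-0.85 to 0.46, adjusted p = 0.949). The highest PTU array, at 36319, lay within the PER range. When only probes above background on at least 17.5 of the 35 arrays were tested, MMI minus PER kept its size of -0.73. It then passed, with a limma adjusted p of 0.0381. PER was known to be high against control when the gene was chosen, so this pass and the 0.448% are no independent evidence.

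Within treatments, the members were compared between times. In control brains msi1.S averaged -372 ± 1327 after 48 h and 2274 ± 2474 after 24 h (SD, n = 3 each). The log2 difference of 48 h minus 24 h was -3.20 ± 1.04, with a limma adjusted p of 0.183. For 96 h minus 24 h in control it was -1.96 ± 1.16 (limma adjusted p = 0.399). Over all probes, 0.674% of 445 were called for 48 h minus 24 h in control and 5.17% for 96 h minus 24 h. For 96 h minus 48 h in control it was 1.58%, for 96 h minus 24 h it was 0.226% in MMI and 1.82% in PTU, and it was 0% in the other 7 time differences. In exposed brains the 48 h minus 24 h difference of msi1.S was 0.87 ± 1.04 in MMI, -0.14 ± 1.04 in PTU and 0.09 ± 1.16 in PER, with limma adjusted p-values of 0.929, 1 and 1. That PER value has the near-identical array, at 3575 under both labels, on both sides, which draws it toward 0. Its adjusted p thus says little about time, as does the 0% of all probes for 48 h minus 24 h in PER. Whether the msi1.S difference from control varied with time was tested directly, and the limma adjusted p was 0.296 for MMI, 0.631 for PTU and 0.75 for PER, where 0.905%, 0.457% and 0.227% of all probes were called. The PER test holds the copied array at both 24 and 48 h. These tests are built from differences from control that were known when the gene was chosen, so they are no independent evidence either way. The control time differences of msi1.S use the same control values, so that limit holds for them too.

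The msi1.S time difference in control depended on the spot and on single arrays. With the second spot alone it was -4.19 for 48 h minus 24 h (limma adjusted p = 0.00186) and -4.30 for 96 h minus 24 h (adjusted p = 0.00213), and the test of MMI by time, with the same limit, gave an adjusted p of 0.0096. With the first spot alone the 2 values were -0.70 and -0.36. On the second spot, control 24 h replicate 3 (5089) was the only control array above background. The sizes and adjusted p-values from that spot thus depend in part on the offset. Without control 48 h replicate 2, the 48 h minus 24 h difference was -4.58 (limma adjusted p = 0.0181). Without control 24 h replicate 3, the array at 5124, it was -2.37. The adjusted p-values under the threshold here use control values that entered the choice of the gene, so they are no independent evidence.

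fmr1.L and pabpc1.S showed no time difference that passed. In control, pabpc1.S was 0.19 ± 0.51 for 48 h minus 24 h (limma adjusted p = 0.932) and -0.69 ± 0.51 for 96 h minus 24 h (adjusted p = 0.534), and without control 96 h replicate 1 the 96 h minus 24 h value was 0.32. In PER, all 3 arrays at 96 h were below both arrays at 24 h, as were 17.6% of 444 probes, with means of 34281 ± 3261 (n = 3) and 42385 ± 1367 (n = 2) and a log2 difference of -0.31 ± 0.57 (limma adjusted p = 1). Of those 2 arrays at 24 h, the one at 43352 is the array also labelled 48 h, so 1 array, at 41419, is of undisputed time. fmr1.L in control was -0.04 ± 1.12 for 96 h minus 24 h (limma adjusted p = 0.992).

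By group means, msi1.S was highest in MMI at 48 h (4446 ± 282) and the 3 control groups were the lowest 3 of 12. Each group's range overlapped that of its neighbour in this order. For fmr1.L, control at 24 h was highest (3045 ± 3445) and PTU at 24 h lowest (-73 ± 163), and every pair of neighbours overlapped. For pabpc1.S, the 3 PER groups came first, at 43519 ± 1510 after 48 h, 42385 ± 1367 after 24 h and 34281 ± 3261 after 96 h, and the step from PER at 24 h to PER at 96 h was the only one between neighbours without overlap. The pooled SD between arrays of a group was 1.44 for msi1.S, 1.37 for fmr1.L and 0.41 for pabpc1.S on the log2 scale.

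**Figure D4:**
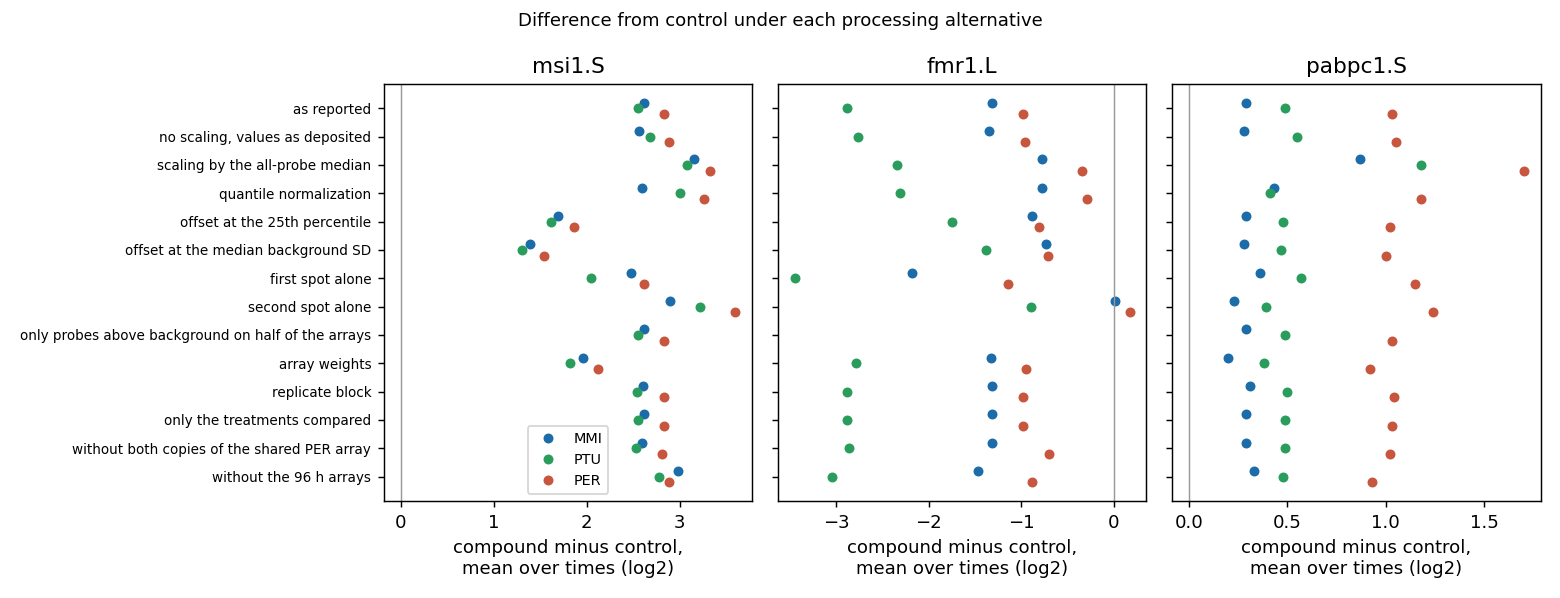
Log2 difference from control over the 3 times for MMI, PTU and PER (horizontal axis) under each way of processing the values (rows). msi1.S stays between 1.31 and 3.60, fmr1.L is at 0.01 for MMI and 0.17 for PER with the second spot alone, and pabpc1.S is highest with the all-probe median.

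Over the 12 group means, the genes whose levels followed the members most closely were ranked among probes above background on at least 17.5 arrays, by Spearman's rank correlation of log2 values. The nearest to msi1.S were pabpc1.S (0.685), atp1b3.S, a subunit of the sodium pump (0.629), and pkm.S, the glycolytic enzyme pyruvate kinase (0.622), of 51 candidates. The nearest to pabpc1.S were msi1.S (0.685), ywhab.L, a 14-3-3 protein (0.643), and gap43.S (0.629). The nearest to fmr1.L were id2.L, an inhibitor of neural basic helix-loop-helix factors (0.783), csnk1a1.L, casein kinase 1 alpha (0.713), and HMG-1, a chromatin protein (0.636), of 52. The group means share arrays and scale, and the highest of many correlations is high by its choice. They include the control groups, and the members were chosen with their differences from control known. The nearness of msi1.S and pabpc1.S is thus no independent result. Among the candidates, msi1.S passed the filter mainly through exposed arrays. fmr1.L itself was above background on 11 of 35 arrays and would not have passed it. The order of its group means, and so its correlations, thus rests in large part on values below background.

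Other genes of RNA binding, of the neural progenitors in which Musashi-1 acts, of neurons and of translation give the setting. Of the RNA-binding list, 6 genes were measured. Besides the 3 members these were ptbp1.L, a splicing repressor of progenitors, ybx2.S, a Y-box protein that masks messages in germ cells, and zfp36l2.L, which promotes decay of messages. They were above background on 1, 7 and 1 of 35 arrays. ybx2.S averaged -153 ± 973 in MMI, 123 ± 1068 in PTU and 211 ± 438 in PER, against 1377 ± 2785 in control (SD, n = 9, 9, 8 and 9), with 3 of 9 control arrays above background. In the comparisons between compounds 0 of 6 passed, with a median log2 difference of 0.07 for MMI minus PTU, -0.34 for MMI minus PER and -0.41 for PTU minus PER, beside 0.08, -0.05 and -0.06 over all probes tested.

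Of the progenitor and cell-cycle list, 10 genes were measured, and 0 of 10 passed between compounds. Its brightest 3 were pcna.S, the replication clamp, id2.L and mcm2.L. pcna.S averaged 5047 ± 1583 in MMI, 3662 ± 1509 in PTU and 4046 ± 997 in PER, against 3648 ± 3078 in control. id2.L averaged 2636 ± 1651 in MMI, 2028 ± 701 in PTU and 2293 ± 1226 in PER, against 5594 ± 1459 in control. The fitted log2 difference of id2.L from control was -1.31 ± 0.31 for MMI, -1.48 ± 0.31 for PTU and -1.48 ± 0.32 for PER over the 3 times, given as a description since the lists were chosen with such differences known. For MMI it was -2.50 at 24 h, -0.26 at 48 h and -1.18 at 96 h. mcm2.L, a subunit of the replicative helicase, averaged 1229 ± 940 in MMI, 1058 ± 521 in PTU and 1197 ± 473 in PER, against 699 ± 1488 in control, and was above background on 16 of 35 arrays. The pcna.S ranges overlapped in all 4 treatments.

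Of the neuron and synapse list, 3 genes were measured: gap43.S, camk2a.S, a kinase of synapses, and dcc.L, a netrin receptor. gap43.S averaged 19614 ± 3645 in MMI, 21784 ± 4736 in PTU and 25901 ± 5580 in PER, against 15137 ± 5801 in control. camk2a.S averaged 1089 ± 623 in MMI, 754 ± 601 in PTU and 1051 ± 416 in PER, against 1696 ± 2546 in control. dcc.L was above background on 1 of 9 control arrays, with a control median of -67, so its fitted differences depend on the offset and no size is given. As fitted, dcc.L was lower in control after 48 h than after 24 h (limma adjusted p = 0.0253). It was also lower after 96 h than after 24 h (limma adjusted p = 0.024). Of this list, 0 of 3 passed between compounds.

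Of the translation list, 7 probes were measured, among them 5 for rpl8.S and 1 for rpl35a.S, both proteins of the large ribosomal subunit; rps6ka3.L, matched by the start of its name, is a kinase and no ribosomal protein. Here 2 of 7 probes passed, both of rpl8.S and both higher with PTU than with PER. They differed by 1.30 ± 0.26 and 1.31 ± 0.27 on the log2 scale (limma adjusted p = 0.0106 each). The 2 probes averaged 57216 ± 30008 and 73210 ± 36491 in PTU (SD, n = 9). In PER they averaged 21035 ± 3951 and 26940 ± 4818 (n = 8). The tests of rpl8.S counted the copied PER array under both labels and were not examined without it. Over all probes, 0.915% of 437 were called between PTU and PER. The other 3 rpl8.S probes gave 1.00, 0.68 and 0.66 and did not pass (limma adjusted p = 0.0679, 0.557 and 0.442). rpl35a.S averaged 2283 ± 2302 in MMI, 2136 ± 1172 in PTU and 957 ± 260 in PER, against 5133 ± 2681 in control. The median of the list for PTU minus PER was 0.95, beside -0.06 over all probes. With 5 of its 7 probes for rpl8.S, the list says little about translation genes as a set.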

How the data were processed

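Brain RNA of Xenopus laevis tadpoles was measured on 35 arrays, which were grouped by the treatment and time in their labels. Per the labels' protocols, RNA pools were amplified, copied to radiolabelled cDNA and read on 1-channel arrays. The authors deposited 898 spots of intensity per array, with 677 empty cells in all. How the scanner signal was corrected or scaled before deposit is not given in those protocols, but 17.3% to 44.5% of values per array were 0 or negative, as after background subtraction. The number of arrays limits the precision.

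The 2 spots of each of 449 probes were averaged. The negative probe values of an array gave its background SD (their root mean square). Arrays were scaled to the median of 18 probes above 2 background SDs on all arrays, because these medians had an SD of 0.352 (log2), over the limit of 0.25. Negative values became 0, the 5th percentile of positive values (67.6) was added as an offset, and log2 values were fitted with limma 3.58.1 in R 4.3.3 over 12 groups without covariates, with Benjamini-Hochberg adjustment over all probes and a threshold of 0.05. A test needed 2 values in each group. The script was tested on simulated data. Figures were drawn with matplotlib 3.10.9.

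The genes and lists were chosen with earlier results of these data known. Named are all probes of the 3 genes, every measured gene of the RNA-binding list, the 3 brightest measured genes of each other list with any that passed a tested comparison, and for each gene the 3 named genes nearest to it over group means. The alternatives were the scaling, the offset, single spots, a filter on dim probes, array weights, a replicate block, and leaving out treatments, times or arrays. Gene names come from the platform annotation, updated through RefSeq's gene table except for 3 symbols.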

Additional observations from a re-analysis of the deposited data

How the results depend on the processing

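Of the 33 results recomputed, these changed sign or side of the threshold, or moved by more than the spread between arrays. For msi1.S, MMI minus PTU was -0.11 without scaling, -0.40 with quantile normalization and -0.32 with the second spot alone, against 0.06 as reported, and leaving out single arrays gave -0.07 to 0.31. MMI minus PER was 0.08 without the 96 h arrays, and -0.37 to 0.03 with single arrays left out (0.03 without MMI 96 h replicate 2). In control, 48 h minus 24 h was -4.19 and 96 h minus 24 h -4.30 with the second spot alone, which also gave an adjusted p of 0.0096 for MMI by time. With single arrays left out they ranged from -4.58 to -2.37 and from -2.52 to -1.13. The range for 96 h minus 24 h lacks control 96 h replicates 1 and 2, without which no value resulted. For fmr1.L, the second spot alone gave 0.01 for MMI minus control, -0.90 for PTU minus control, 0.17 for PER minus control and 1.09 for control 48 h minus 24 h, and the offset at the median background SD gave -1.38 for PTU minus control. MMI minus PER ranged from -0.72 to 0.04 with single arrays left out, and control 48 h minus 24 h from -1.36 to 0.07 (0.07 without control 24 h replicate 2). Control 96 h minus 24 h, -0.04 as reported, was 0.23 without scaling, 0.45 with the all-probe median, 0.20 with quantile normalization and 0.16 with array weights, and -0.58 to 0.85 with single arrays left out. For pabpc1.S, the all-probe median gave 0.87 for MMI, 1.18 for PTU and 1.70 for PER against control, quantile normalization gave 0.02 for MMI minus PTU, and the filter on dim probes let MMI minus PER (-0.73) pass at an adjusted p of 0.0381. Control 96 h minus 24 h ranged from -0.98 to 0.32. The causes of these changes were not tested. The filter refitted limma on the brighter probes alone and adjusted over fewer probes. The unadjusted limma p of pabpc1.S MMI minus PER was itself 0.0045 under it, against 0.0291 as reported.

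Leaving out single arrays moved the differences from control between 2.30 and 3.29 for msi1.S, between -3.30 and -0.68 for fmr1.L and between -0.06 and 1.10 for pabpc1.S, where MMI minus control was -0.06 without control 96 h replicate 1. The msi1.S range lacks control 96 h replicates 1 (-1484) and 2 (2491). Leaving out either gave no value, since a test needed 2 values in each group. How far msi1.S depends on those 2 arrays is thus not shown. The pabpc1.S range lacks, in the same way, the measured arrays of MMI at 96 h and PTU at 24 h. The offset at the median background SD took msi1.S minus control from 2.62 to 1.39 for MMI, from 2.55 to 1.31 for PTU and from 2.83 to 1.54 for PER. These changes were smaller than the pooled SD between arrays of a group (1.44). They were larger than the SE of each difference (0.62, 0.62 and 0.65). fmr1.L had no value under the filter on dim probes, since it was above background on 11 of 35 arrays. Replicate numbers showed no clear pairing of the arrays. The deviations of 187 same-numbered pairs had correlations of -0.60 to 0.68 with a median of 0.02. For 374 pairs of other numbers these were -0.82 to 0.82 with a median of -0.01. Of the arrays, 14 of 35 were nearest to their own number. Such values can miss a weak pairing. With the replicate number as a block, 0 of 81 tests passed, and pabpc1.S MMI minus PER was -0.73. Signal over background limits fmr1.L in all treatments and msi1.S in control.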
